A study of Mus musculus with 51 samples.

Results

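The fibrillar collagens and the genes of the elastic fiber were followed across the mammary gland (MG) of BALB/c and C57BL/6 mice after fractionated X-rays. Of the 10 genes listed, 8 had probe sets annotated to that symbol alone on the Affymetrix HT_MG-430A array, namely Col1a1, Col3a1, Col5a1, Col5a2, Eln, Fbn2, Lox and Fbln5. No probe set was annotated to Col1a2 or Fbn1 alone, and these genes were not analysed here. Together the 8 genes had 15 of the 22626 probe sets, and they were read against all 11807 genes that had a probe set of their own. All 15 probe sets were tested, with no filter on low values.

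Virgin females, 8 weeks old at the start, received 4 weekly whole-body fractions of 7.5 cGy (low dose, LD), 4 weekly fractions of 1.8 Gy (high dose, HD) or sham exposure, and the 4th pair of MG was taken 4 hr or 1 month after the last one, with the inguinal lymph nodes removed. BALB/c is the strain more sensitive to radiation-induced mammary cancer and C57BL/6 the more resistant. Each array held the RNA of 1 mouse. In BALB/c there were 3 sham, 4 LD and 4 HD arrays at 4 hr and 3 sham, 2 LD and 4 HD arrays at 1 month, and in C57BL/6 there were 3 sham, 4 LD and 4 HD arrays at 4 hr and 4 sham, 4 LD and 4 HD arrays at 1 month, 43 in all. The estrous cycle was not synchronized. The strains were run on separate plates, which leaves strain and plate confounded. Sham arrays lay in plate columns 1 to 5 and irradiated arrays in columns 5 to 12, so that position on the plate and exposure are nearly confounded. At 4 hr HD lay in columns 6 to 8 and LD in 9 to 12, and at 1 month LD lay in 5 to 8 and HD in 9 to 12. Comparisons of HD with LD at the same time are thus confounded with plate column as well.

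Fibrillar collagens form the tensile fibrils of the gland's stroma and are made mainly by fibroblasts. Type I collagen is the major fibril component, type III is mixed into the same fibrils, and type V sits in their core and limits their diameter. Elastic fibers consist of an elastin core laid onto a scaffold of fibrillin microfibrils, with fibulins guiding the assembly and lysyl oxidase cross-linking both elastin and collagen. In the MG this stroma surrounds the ducts and changes with ductal growth, and fibroblasts, smooth muscle cells and endothelial cells all add to it.

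Promoter sequence is shown for Col3a1 and Col5a1, to represent the fibrillar collagens that varied together across mice, and for Fbln5, the gene whose level differed least from sham after HD in BALB/c at 4 hr. Those of Col1a1, Col5a2 and Eln are not shown. The stretches end at the base before the first annotated base of each gene, run 5′ to 3′ on the gene's strand, and come from RefSeq promoters on GRCm38.p6. They are Col3a1 at chr1:45311288-45311537 (plus strand, 250 bases), Col5a1 at chr2:27886175-27886380 (plus strand, 206 bases) and Fbln5 at chr12:101819120-101819369 (minus strand, 250 bases). Capitals mark the CCAAT box (CCAAT, either strand), the TATA box (TATAAA, gene strand) and the GC box (GGGCGG, either strand), none of which overlapped another.
Col3a1: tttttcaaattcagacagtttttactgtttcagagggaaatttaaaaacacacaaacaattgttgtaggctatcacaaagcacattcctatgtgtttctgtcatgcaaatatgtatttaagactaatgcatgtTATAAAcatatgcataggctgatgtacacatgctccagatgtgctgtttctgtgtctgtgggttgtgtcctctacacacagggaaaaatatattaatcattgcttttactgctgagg
Col5a1: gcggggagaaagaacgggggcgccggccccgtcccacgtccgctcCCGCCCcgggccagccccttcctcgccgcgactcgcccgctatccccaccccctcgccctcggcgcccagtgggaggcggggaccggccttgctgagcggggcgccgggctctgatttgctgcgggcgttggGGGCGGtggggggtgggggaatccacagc
Fbln5: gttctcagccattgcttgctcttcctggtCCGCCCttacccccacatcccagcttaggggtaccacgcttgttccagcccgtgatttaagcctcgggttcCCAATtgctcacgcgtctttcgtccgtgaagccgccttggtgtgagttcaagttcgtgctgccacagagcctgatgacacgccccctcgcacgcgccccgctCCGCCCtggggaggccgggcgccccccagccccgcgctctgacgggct
The Col3a1 stretch held 1 TATA box, from position -117 to -112 before the start, and neither of the other motifs. The Col5a1 stretch held 2 GC boxes and the Fbln5 stretch 2 GC boxes and 1 CCAAT box. G and C made up 35.2% of the Col3a1 stretch, 77.7% of that of Col5a1 and 65.2% of that of Fbln5. Over the 250 bases before the start of 32851 promoters in the same table, 33.8% held a CCAAT box, 7.59% a TATA box and 32.7% a GC box. A match is a run of letters and not a measured binding site.

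Several arrays held transcripts of tissues other than MG. For the 8 genes, some comparisons are given with and without the most affected of them. These are BALB/c HD with sham, BALB/c HD with LD at 4 hr, and both doses with sham in C57BL/6 at 1 month. The mean log2 level of 7 skeletal muscle genes was 11.62 in BALB/c HD 4 hr replicate 1, 10.71 in C57BL/6 sham 1 month replicate 2 and 8.50 in replicate 3 of the BALB/c HD 1 month group. It was 7.96 in BALB/c sham 4 hr replicate 1 and 7.39 in BALB/c LD 4 hr replicate 2. Lower muscle means were 6.25 and 6.54 in BALB/c LD 4 hr replicates 3 and 4, and 6.22 and 6.55 in C57BL/6 sham and LD 1 month replicate 4. In BALB/c sham 1 month replicate 3, 1 of 3 sham arrays of its group, the mean was 5.82. The fits without doubted arrays kept all arrays with these lower means, where an array with little muscle read 4.54 (BALB/c HD 1 month replicate 1). A list of 5 epidermal and hair genes reached 8.24 in BALB/c LD 4 hr replicate 1, and 4 B cell genes reached 8.45 in BALB/c HD 1 month replicate 1. The epidermal and hair mean was 5.56 in BALB/c sham 4 hr replicate 2, against 4.46 and 4.57 in the other sham arrays of that group. Over all MG arrays the markers of adipocytes ranged from Lep, between 8.07 and 10.49 on the log2 scale, to Fabp4, between 13.71 and 14.04. The luminal marker Krt18 lay between 9.35 and 12.70 and Krt7 between 6.74 and 11.47, and the myoepithelial marker Acta2 between 11.39 and 13.004 and Trp63 between 4.94 and 7.57. No pair of arrays was identical, with correlations between 0.958 and 0.995.

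In BALB/c MG 4 hr after HD, Col1a1, Eln and Fbn2 fell against sham, and all 8 genes had lower means. A gene was called at a Benjamini-Hochberg adjusted p under 0.05 from limma over all probe sets, taken at the gene's brightest probe set. By this rule 3 of 8 genes were lower and none higher, where 5.90% of all genes were called in either direction and 3.11% were called lower. The median log2 difference was -0.72 over the 8 genes and -0.0039 over all genes. In 4 of 8 genes every HD array lay below every sham array, which held for 10.0% of all genes.

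Col1a1 encodes the α1 chain of type I collagen and spans bases 94936224 to 94953042 of chromosome 11 (GRCm38.p6). Its log2 values in BALB/c at 4 hr were 12.38, 12.73 and 12.29 in sham MG, 12.14, 12.24, 11.50 and 12.09 after LD, and 11.14, 11.88, 10.87 and 11.50 after HD. The 4 HD arrays all lay below the 3 sham arrays, while the LD and HD arrays overlapped. The 4 LD arrays lay below sham by a narrow margin, 12.24 against 12.29. Such a separation after LD held for 1 of the 8 genes. Its share over all genes was not computed, so the count cannot be read as a result. Col1a1 was lower after HD by a log2 difference of -1.12 (SE 0.29, 95% interval -1.74 to -0.50, adjusted p = 0.0365 by limma). After LD the difference was -0.48 (SE 0.29, adjusted p = 0.624).

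Col3a1, the chain of type III collagen, and Col5a2, the α2 chain of type V, are neighbours on chromosome 1. Col3a1 lies from 45311538 to 45349706 and Col5a2 from 45374331 to 45503282. The brightest Col3a1 probe set read 13.81, 13.87 and 13.80 in sham MG and 13.46, 13.63, 13.36 and 13.60 after HD. These groups did not overlap, and the log2 difference of -0.32 (SE 0.11, adjusted p = 0.103) did not pass. All 43 arrays lay between 13.13 and 13.90 at this probe set, against 9.56 to 11.78 at the other Col3a1 probe set, where the difference after HD was -0.88 (SE 0.30, adjusted p = 0.0944).

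Col5a2 read 11.99, 12.24 and 11.64 in sham MG and 10.77, 11.41, 10.79 and 11.32 after HD. The groups were again separate, with a difference of -0.88 (SE 0.26, adjusted p = 0.0530) just beyond the threshold. At its other probe set Col5a2 passed with -1.15 (SE 0.33, adjusted p = 0.0496).

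Col5a1, the α1 chain of type V collagen on chromosome 2 from 27886381 to 28039510, read 10.80, 11.07 and 10.60 in sham MG and 10.11, 10.63, 9.98 and 10.37 after HD at its brightest probe set. HD replicate 2 lay just above the lowest sham array, and the difference was -0.55 (SE 0.24, adjusted p = 0.196). At both other Col5a1 probe sets every HD array was below every sham array and the test was passed, with -0.93 (SE 0.23, adjusted p = 0.0296) at the brighter of them and -0.93 (SE 0.26, adjusted p = 0.0472) at the dimmer. The probe sets of Col5a1 and Col5a2 thus disagreed on the call and not on the direction.

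Eln encodes elastin and spans bases 134702595 to 134747368 of chromosome 5. It read 8.22, 8.78 and 8.99 in sham MG, 8.54, 8.47, 8.22 and 8.36 after LD, and 7.42, 8.22, 7.31 and 7.73 after HD. HD replicate 2 matched the lowest sham array, and the other HD arrays lay below all sham arrays. Elastin was lower by -0.99 (SE 0.25, adjusted p = 0.0303) after HD, and its other probe set gave -0.63 (SE 0.19, adjusted p = 0.0590).

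Fbn2, fibrillin-2, a microfibril protein made above all in growing tissue, showed the largest difference of the 8 genes in this comparison. It read 6.23, 6.08 and 4.88 in sham MG, 4.33, 5.002, 4.21 and 4.93 after LD, and 4.22, 4.05, 3.98 and 4.01 after HD. The HD arrays were all below the sham arrays and close to one another (SD 0.11, n = 4), while the sham arrays were spread (SD 0.74, n = 3). The difference was -1.66 (SE 0.36, 95% interval -2.41 to -0.91, adjusted p = 0.0153). No detection calls were used, so whether the HD values were above background is not known.

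Lox, lysyl oxidase, and Fbln5, fibulin-5, which binds elastin during fiber assembly, did not pass. Lox read 8.64, 9.84 and 9.73 in sham MG and 8.51, 8.96, 8.87 and 9.11 after HD, and the difference of -0.54 (SE 0.31, adjusted p = 0.339) came with overlapping groups. Its other probe sets gave -0.21 (adjusted p = 0.739) and 0.18 (adjusted p = 0.427), so the 3 Lox probe sets differed in sign. Fbln5, on chromosome 12, read 8.76, 9.33 and 8.90 in sham MG and 8.89, 9.04, 8.76 and 9.02 after HD, with a difference of -0.07 and a 95% interval from -0.42 to 0.28.

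**Figure D1:**
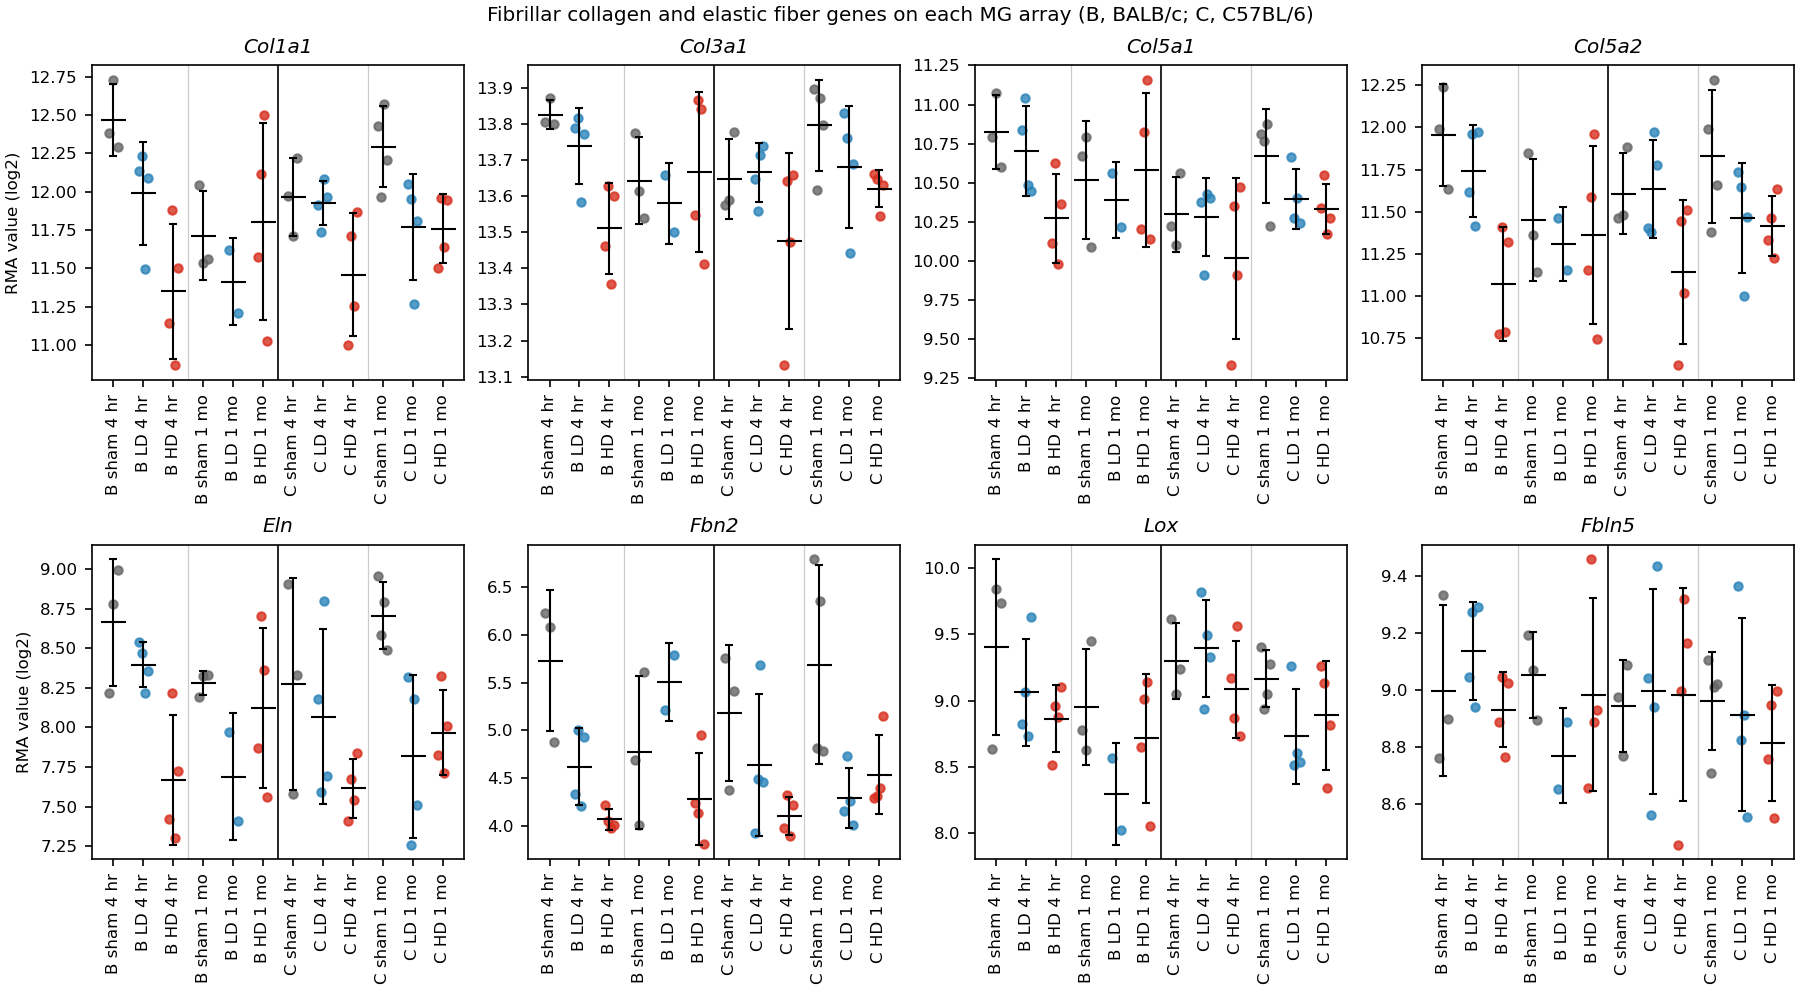
RMA values (log2) of the 8 genes at their brightest probe set in the 12 groups, with 1 point per array (grey, sham; blue, LD; red, HD), a black dash for the group mean and bars for 1 SD; each panel has its own axis, which does not start at 0. In BALB/c at 4 hr the HD points of Col1a1, Col3a1, Col5a2 and Fbn2 lie below all sham points, while those of Fbln5 lie among them.

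**Figure D2:**
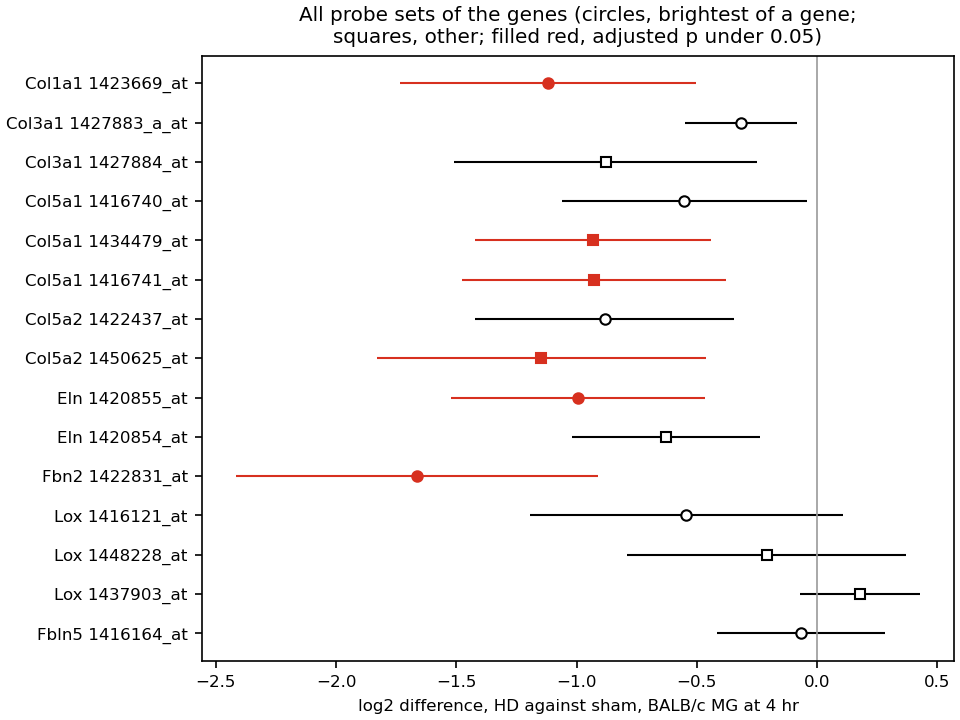
Log2 difference of HD from sham in BALB/c MG at 4 hr for all 15 probe sets, with 95% intervals (circles, brightest probe set of a gene; squares, other probe sets; filled red, adjusted p under 0.05). All probe sets but 1 of Lox lie below 0, and the filled ones belong to Col1a1, Col5a1, Col5a2, Eln and Fbn2.

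The calls in BALB/c at 4 hr after HD rested on few arrays. In a fit without the doubted BALB/c arrays (HD 4 hr replicate 1, sham 4 hr replicate 1, LD 4 hr replicates 1 and 2 and HD 1 month replicate 1), none of the 8 genes passed. The differences were then -1.09 for Col1a1 (adjusted p = 0.153), -1.14 for Eln (adjusted p = 0.0710) and -1.47 for Fbn2 (adjusted p = 0.113). None passed either when BALB/c HD 1 month replicate 3 was left out as well, a setting added after the data were seen, with adjusted p = 0.120 for Col1a1, 0.0757 for Eln and 0.0917 for Fbn2. The other probe sets of Col5a1 and Col5a2 did not pass without the doubted arrays, with -0.86 (adjusted p = 0.149) and -0.96 (adjusted p = 0.167) for Col5a1 and -0.84 (adjusted p = 0.289) for Col5a2. No gene passed without sham replicate 2, whose epidermal and hair mean was raised (5.56) and which the fit without the doubted arrays kept. In turn, 1 gene passed without HD replicate 1, HD replicate 3, HD replicate 4 or sham replicate 1. The number was 1 with the replicate number as a block and 0 with the plate column as a covariate, where the differences were -1.26 for Col1a1, -1.04 for Eln and -1.59 for Fbn2.

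Markers of several cell types were read in the same comparison and tested with all arrays only, the doubted ones included. In it 5.90% of all genes were called in either direction and 3.11% were called lower. All 6 luminal epithelial markers fell, with a median of -1.38, and their mean level was 8.06 to 9.63 after HD and 10.18 to 10.72 in sham MG. Of 6 fibroblast markers 1 fell, Pdgfrb, a receptor of stromal and mural cells, by -0.65 (adjusted p = 0.0151), and the mean of the list was 8.57 to 9.26 after HD and 9.02 to 9.57 in sham MG.

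None of 5 cell cycle genes passed, with a mean of 5.11 to 5.50 after HD and 5.69 to 6.66 in sham MG, and 1 of 5 myoepithelial markers, Trp63, fell. With 1 call each, the fibroblast and myoepithelial lists are too short to be read against the share of all genes. The mean of 4 adipocyte markers was 12.75 to 12.85 after HD and 12.42 to 12.58 in sham MG, with none passing. The part of these lists in the result was not tested. In whole glands, fewer cells of a type and less RNA per cell cannot be told apart.

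Genes that build, bind or break down the same matrix were read from 8 lists with 99 measured genes. These were tested with all arrays only, and whether their calls hold without the doubted arrays is not known. After HD in BALB/c at 4 hr, 11 of them (11.1%) fell and none rose, against 3.11% of all genes that fell, and their median was -0.22, against -0.0039 over all genes. With 5.90% of all genes called in either direction, the lists of 14 and 16 genes with 1 call each stood near that share. In the list for collagen synthesis, folding and processing, 3 of 18 fell, namely Serpinh1, the collagen chaperone of the endoplasmic reticulum, by -0.59, Creb3l1, a transcription factor that activates collagen genes, by -0.97, and P3h4, a partner of the collagen prolyl hydroxylases, by -0.66. In the list of elastic fiber partners 1 of 10 fell, Mfap2, a microfibril glycoprotein, by -1.64 (SE 0.30, adjusted p = 0.00609).

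Among fibril-associated collagens 1 of 6 fell, Col16a1 (-1.24), and among basement membrane and microfibrillar collagens 1 of 14, Col7a1, the anchoring fibril collagen (-1.70). Among fibril-binding proteoglycans and matricellular proteins 1 of 16 fell, Fn1, fibronectin (-1.04). In the matrix degradation list 2 of 18 fell, Mmp14, a membrane-bound collagenase (-1.35), and Adamts4, an aggrecanase (-1.39). In the TGF-beta list 2 of 12 fell, the ligand Tgfb3 (-0.997) and Skil, a Smad repressor (-0.70). None of 5 cross-linking enzymes passed, with Loxl1 at -0.75 (adjusted p = 0.0541) and Loxl2 at -1.05 (adjusted p = 0.0957).

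Set directly against LD at 4 hr in BALB/c, HD gave lower means in all 8 genes, with a median of -0.49, and none passed at its brightest probe set, where 7.89% of all genes did. At an unadjusted p under 0.05 there were 4 of 8, against 24.6% of all genes, and in 2 of 8, Col5a2 and Eln, every HD array lay below every LD array, against 10.3% of all genes. Eln differed by -0.73 (SE 0.23, adjusted p = 0.0631) and Col5a2 by -0.67 (SE 0.24, adjusted p = 0.0915). The other Col3a1 probe set passed, with 11.30, 11.72, 11.30 and 11.63 after LD, 10.32, 10.98, 10.04 and 10.86 after HD, and a difference of -0.94 (SE 0.28, adjusted p = 0.0469). Without the doubted arrays the LD group was left with replicates 3 and 4, which held some muscle transcripts, and none of the 8 genes passed. Eln was then at -0.54 (adjusted p = 0.393), Col5a2 at -0.52 (adjusted p = 0.463), and the other Col3a1 probe set at -0.84 (adjusted p = 0.312). With all arrays, 9 of the 99 related genes (9.09%) fell and 1 rose in this comparison. This is near the 7.89% of all genes called in either direction, and the share of all genes that fell is not given here. The fallen ones included Loxl1, the cross-linking enzyme of elastic fibers, by -0.77 (adjusted p = 0.0288), and Ltbp1, a microfibril-bound carrier of latent TGF-beta, by -0.72 (adjusted p = 0.0158).

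After LD itself, none of the 8 genes passed in BALB/c at 4 hr, nor did any gene on the array (0%). At an unadjusted p under 0.05 there was 1 of 8, against 9.18% of all genes, and that gene was Fbn2 with -1.11 (SE 0.36, adjusted p = 0.314). Its LD and sham arrays overlapped, since sham replicate 3 lay at 4.88 and LD replicates 2 and 4 at 5.002 and 4.93. The median of the 8 genes was -0.24. In the fit without the doubted arrays, Fbn2 after LD differed by -0.91 (adjusted p = 0.685).

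In C57BL/6 at 4 hr after HD, Col1a1, Eln and Fbn2 again had the lowest differences, and none of the 8 genes passed, where 0.872% of all genes were called. At an unadjusted p under 0.05 there were 3 of 8, against 13.8% of all genes. Fbn2 read 5.76, 4.38 and 5.41 in sham MG and 3.97, 4.32, 3.89 and 4.21 after HD. Each HD array was below each sham array by a narrow margin, 4.32 against 4.38, with a difference of -1.08 (SE 0.44, adjusted p = 0.295). This held for 1 of the 8 genes. The share over all genes was not computed, so the count cannot be read as a result.

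Eln in the same groups read 8.91, 7.58 and 8.33 in sham MG and 7.41, 7.68, 7.54 and 7.84 after HD. These overlapped through sham replicate 2, and the difference was -0.66 (SE 0.30, adjusted p = 0.353). Col1a1 read 11.97, 11.71 and 12.22 in sham MG and 11.0003, 11.71, 11.25 and 11.87 after HD, again overlapping, with -0.51 (SE 0.20, adjusted p = 0.281). Fbln5 differed by 0.04 (95% interval -0.39 to 0.47). Of the 99 related genes 1 (1.01%) fell, near the 0.872% of all genes called in either direction. It was Tgfb3, with -1.31 (SE 0.26, adjusted p = 0.0183). No luminal marker passed, with a median of -0.59 over the 6.

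Against LD at 4 hr in C57BL/6, HD gave lower means in all 8 genes, with a median of -0.38, and none passed, where 1.58% of all genes did. At an unadjusted p under 0.05 there were 2 of 8, Col1a1 and Col5a2, against 18.9% of all genes. After LD the 8 genes in C57BL/6 at 4 hr lay close to sham, with a median of 0.0001 and differences from -0.54 for Fbn2 to 0.09 for Lox. None passed and neither did any other gene (0%), and 0 of 8 had an unadjusted p under 0.05, against 4.54% of all genes.

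**Figure D3:**
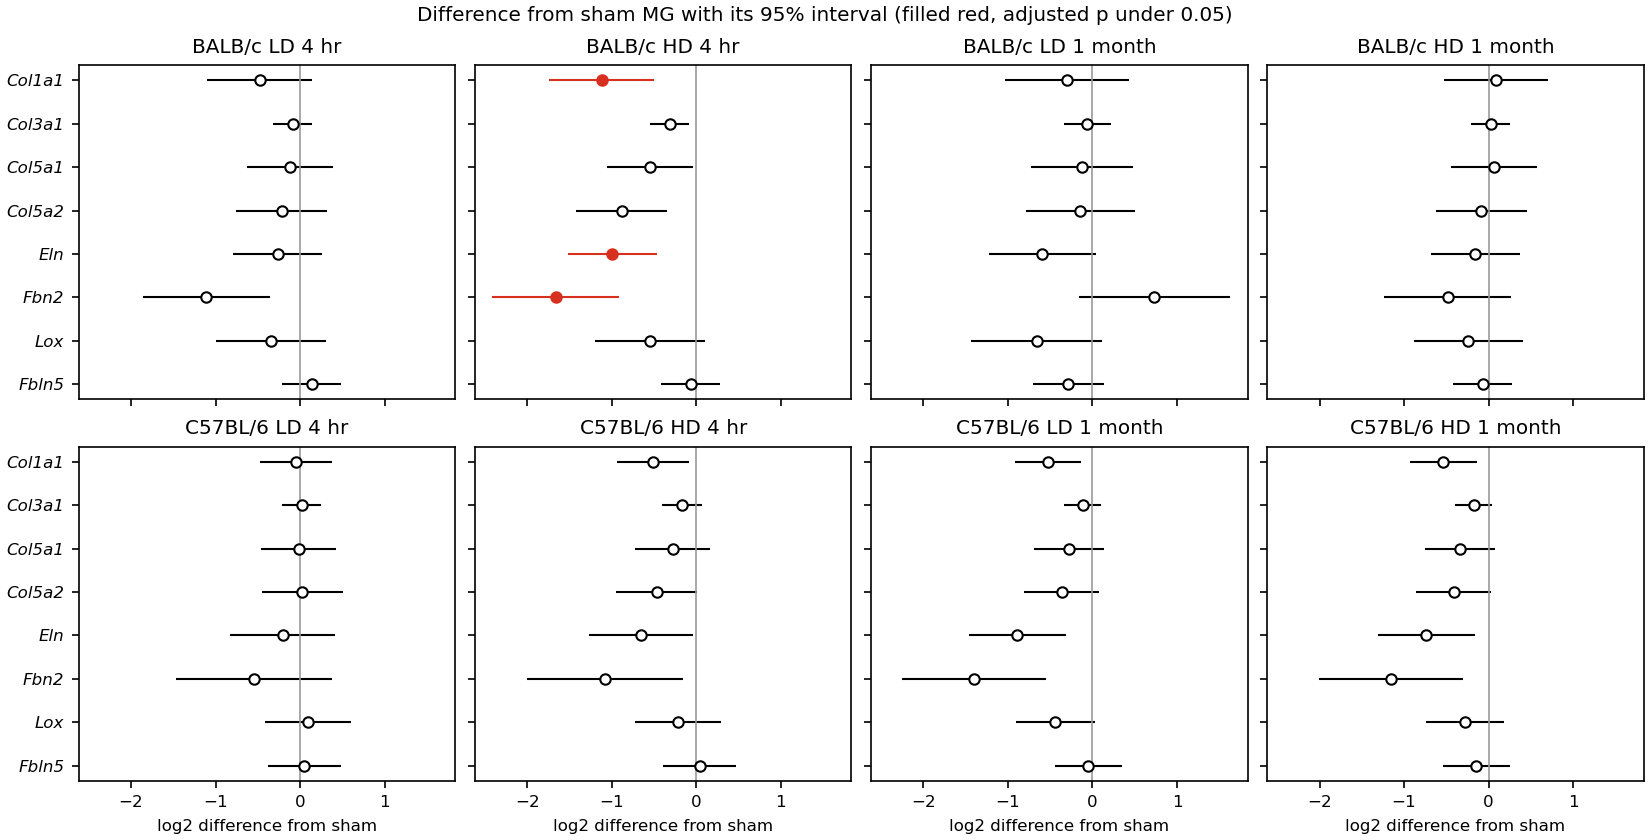
Log2 difference from sham MG of the 8 genes in the 8 dose and time groups, with 95% intervals from limma (filled red, adjusted p under 0.05; open, not passed). The 3 filled points, Col1a1, Eln and Fbn2, are in BALB/c at 4 hr after HD, and in C57BL/6 at 1 month all points lie below 0 after LD and after HD.

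At 1 month in C57BL/6 all 8 genes had lower means than sham after LD and after HD, both read against the same 4 sham arrays, and none passed. After LD no gene on the array was called (0%), and after HD 0.982% of genes were. At an unadjusted p under 0.05 there were 3 of 8 after LD, against 12.6% of all genes, and 3 of 8 after HD, against 18.4% of all genes, in both cases Col1a1, Eln and Fbn2. The medians of the 8 genes were -0.40 after LD and -0.38 after HD, with 0.0008 and -0.0017 over all genes.

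Eln at 1 month in C57BL/6 read 8.96, 8.58, 8.79 and 8.49 in sham MG, 8.32, 7.26, 8.18 and 7.51 after LD and 7.83, 8.32, 7.71 and 8.01 after HD. Neither irradiated group overlapped sham, and the differences were -0.89 (SE 0.27, adjusted p = 0.210) after LD and -0.74 (SE 0.27, adjusted p = 0.165) after HD. Fbn2 read 6.80, 4.82, 6.36 and 4.78 in sham MG, 4.15, 4.73, 4.26 and 4.00 after LD and 4.29, 4.31, 4.39 and 5.15 after HD.

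The sham arrays of Fbn2 thus formed a high and a low pair. Every LD array was below both pairs, with -1.40 (SE 0.41, adjusted p = 0.198), and HD replicate 4 lay above the low pair, with -1.15 (SE 0.41, adjusted p = 0.147). Col1a1 read 12.43, 11.97, 12.57 and 12.21 in sham MG and 11.50, 11.96, 11.64 and 11.94 after HD, separate from sham by a narrow margin, with -0.53 (SE 0.19, adjusted p = 0.145). After LD it differed by -0.52 (SE 0.19, adjusted p = 0.268). Every irradiated array lay below every sham array in 2 of 8 genes after LD, against 4.26% of all genes, and in 2 of 8 after HD, against 5.57% of all genes.

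A fit without sham replicate 2 still held sham replicate 4 (muscle mean 6.22) and LD replicate 4 (6.55). In it the difference of Fbn2 in C57BL/6 at 1 month was -1.69 after LD (adjusted p = 0.123) and -1.44 after HD (adjusted p = 0.123). In the same order that of Eln was -0.93 (adjusted p = 0.214) and -0.78 (adjusted p = 0.221), and that of Col1a1 was -0.63 (adjusted p = 0.197) and -0.64 (adjusted p = 0.142). With all arrays, none of the 99 related genes passed after LD. In the same fit 2 (2.02%) fell after HD, where 0.982% of all genes were called in either direction. These were Mmp14, by -0.72 (adjusted p = 0.0391), and Col4a5, a basement membrane collagen chain, by -1.23 (adjusted p = 0.0462). The mean of the 6 fibroblast markers was 9.24 to 9.61 in sham MG, 9.28 to 9.42 after LD and 8.48 to 9.38 after HD. HD against LD at 1 month gave a median of -0.03 over the 8 genes, with 0 of 8 called (0% of all genes) and 0 of 8 at an unadjusted p under 0.05, against 9.35% of all genes.

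In BALB/c at 1 month the differences from sham took both signs. After LD, with 2 arrays, 0 of 8 genes and no gene at all passed (0%), and 0 of 8 had an unadjusted p under 0.05, against 6.39% of all genes. Fbn2 was the 1 gene above sham, at 5.21 and 5.79 after LD against 4.69, 4.00 and 5.61 in sham MG, a difference of 0.73 (SE 0.43, adjusted p = 0.774) with overlapping groups. In 3 of 8 genes, Lox and Eln among them, both LD arrays lay below all 3 sham arrays. The share over all genes was not computed, and with so few arrays this count cannot be read as a result. Lox read 8.56 and 8.02 after LD and 8.78, 8.63 and 9.45 in sham MG, separate by a small margin and with -0.66 (SE 0.37, adjusted p = 0.768). Eln differed by -0.59 (SE 0.30, adjusted p = 0.736).

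After HD at 1 month in BALB/c the 8 genes had a median of -0.08, 0 of 8 passed where 0.0169% of all genes did, and 0 of 8 had an unadjusted p under 0.05, against 10.6% of all genes. Col1a1 read 11.57, 12.12, 12.50 and 11.03 after HD and 12.05, 11.53 and 11.56 in sham MG. The HD arrays thus lay above, among and below the sham arrays, with a difference of 0.09 (95% interval -0.53 to 0.71). Without the doubted arrays and HD replicate 3, Col1a1 differed by -0.14 (adjusted p = 0.931) and Fbn2 by -0.80 (adjusted p = 0.525), and 0 of 8 passed. HD replicate 4 was the lowest array of its group in 7 of the 8 genes, Fbln5 being the exception. Against LD, HD gave 0 of 8 called, where 0.00847% of all genes were, and 1 of 8 at an unadjusted p under 0.05, against 10.6% of all genes, which was Fbn2 with -1.22 (SE 0.41, adjusted p = 0.263).

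Sham MG were also compared between the times. In BALB/c the 1 month arrays had lower means than the 4 hr arrays in 7 of 8 genes, with a median of -0.42, and in C57BL/6 they had higher means in 7 of 8, with a median of 0.27. None of the 8 genes passed in either strain, where 0% of all genes were called in BALB/c and 3.04% in C57BL/6. At an unadjusted p under 0.05 there were 2 of 8 in BALB/c, Col1a1 and Fbn2, against 6.91% of all genes, and 0 of 8 in C57BL/6, against 18.4% of all genes. Col1a1 in BALB/c sham MG read 12.38, 12.73 and 12.29 at 4 hr and 12.05, 11.53 and 11.56 at 1 month, without overlap and with a difference of -0.75 (SE 0.31, adjusted p = 0.714).

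The 12 groups were also ordered by their means. Col1a1, Col3a1, Col5a1, Col5a2, Fbn2 and Lox had their highest group mean in BALB/c sham 4 hr, Eln in C57BL/6 sham 1 month, and Fbln5 in an irradiated group, BALB/c LD 4 hr. The lowest mean lay in an HD 4 hr group for Col1a1, Col3a1, Col5a1, Col5a2, Eln and Fbn2, and in BALB/c LD 1 month for Lox and Fbln5. For Col1a1 the means ran from 12.47 ± 0.23 (SD, n = 3) in BALB/c sham 4 hr through 12.29 ± 0.27 (n = 4) in C57BL/6 sham 1 month to 11.35 ± 0.44 (n = 4) in BALB/c HD 4 hr. In every gene each of the 11 steps between neighbouring groups was smaller than the larger of their 2 SDs.

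Whether the strains responded differently was asked of the differences from sham in BALB/c minus those in C57BL/6. For the 4 hr HD response the estimates were all below 0, from -0.61 for Col1a1 (95% interval -1.35 to 0.14) to -0.11 for Fbln5. Of the 8 genes 0 passed and 0 had an unadjusted p under 0.05, where 0% and 5.89% of all genes did. The call of Col1a1, Eln and Fbn2 in BALB/c and not in C57BL/6 is therefore not shown to be a strain difference. For the 4 hr LD response these shares were 0 of 8 and 0 of 8, against 0% and 3.80% of all genes.

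For the 1 month HD response the estimates were all above 0, with Col1a1 at 0.62 (95% interval -0.09 to 1.34), and again 0 of 8 passed and 0 of 8 had an unadjusted p under 0.05, against 0% and 5.30% of all genes. For the 1 month LD response 0 of 8 passed (0% of all genes) and 1 of 8 had an unadjusted p under 0.05, against 8.17% of all genes. That gene was Fbn2, with 2.14 (SE 0.64, 95% interval 0.83 to 3.44, adjusted p = 0.367), the BALB/c side resting on 2 LD arrays.

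Sham MG of the strains, with both times averaged, differed by -0.19 for Fbn2 to 0.19 for Col5a1. Of the 8 genes 0 passed, where 8.83% of all genes did, and 0 had an unadjusted p under 0.05, against 23.2% of all genes. The 95% interval was -0.33 to 0.25 for Col1a1 and -1.07 to 0.70 for Fbn2. For Col3a1 it was -0.14 to 0.16 at the brightest probe set, which varied little over all arrays, and -0.53 to 0.30 at the other. Of the other probe sets 1 passed, the dimmest of Lox, with -0.22 (adjusted p = 0.0229).

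The 4 fibrillar collagens varied together from mouse to mouse. Across the 20 BALB/c arrays Pearson's r between them ran from 0.85 to 0.96, and across the 23 C57BL/6 arrays from 0.75 to 0.94. Eln followed them with r from 0.74 to 0.85 in BALB/c and from 0.47 to 0.66 in C57BL/6. Lox was tied to Col1a1 with r of 0.64 in BALB/c and 0.18 in C57BL/6, and Fbn2 to Eln with r of 0.27 in BALB/c and 0.74 in C57BL/6. These values describe arrays that share plate, dose groups and cell makeup, and differences between the strains' values were not tested.

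**Figure D4:**
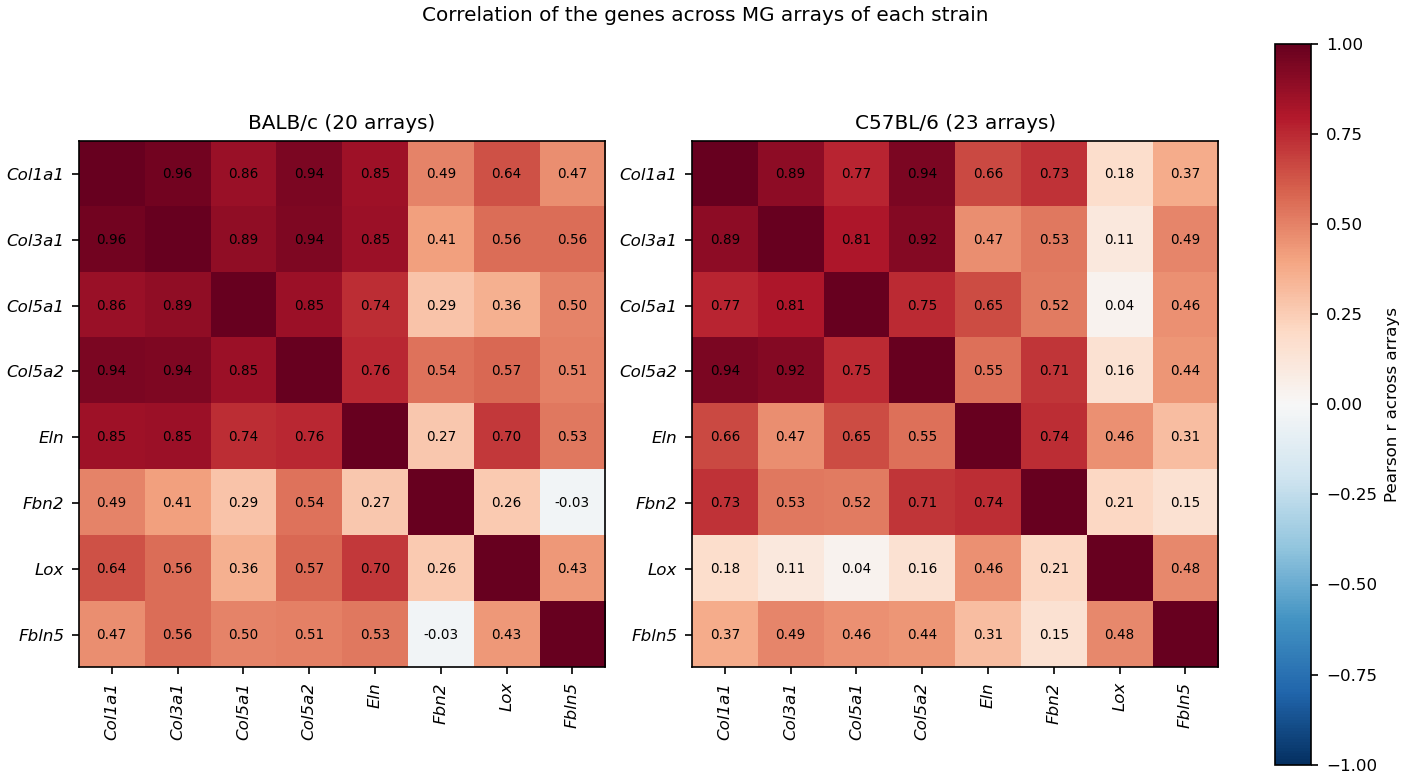
Pearson's r between the 8 genes at their brightest probe sets across the MG arrays of each strain, with all dose and time groups together (left, 20 BALB/c arrays; right, 23 C57BL/6 arrays; colour scale from -1 to 1). The block of Col1a1, Col3a1, Col5a1 and Col5a2 runs from 0.75 to 0.96 over both strains, and Fbln5 has no r above 0.56.

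Over all 43 arrays, with the mean of each strain removed, the genes outside the set whose pattern was most like the mean of the 4 fibrillar collagens were Fstl1, a secreted follistatin-like glycoprotein (r = 0.91), Ppic, a prolyl isomerase of the secretory pathway (0.89), Mfap2 (0.87), Kdelr3, a retrieval receptor of the endoplasmic reticulum (0.86), Rcn1, a calcium-binding protein of the same compartment (0.86), Gpx7 (0.85), Postn, the matricellular protein periostin (0.85), and P3h3, a collagen prolyl 3-hydroxylase (0.84). Across all genes, the patterns most like that of Eln were those of Mdk, a heparin-binding growth factor (0.76), Crybg3 (0.75), Col1a1 (0.74), Mfap2 (0.74) and Adamts15, a matrix protease (0.73). Mfap2 appeared beside both.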

How the data were processed

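Each array held MG RNA of 1 mouse. The authors deposited log2 values after RMA, which corrects background, brings arrays to a common distribution and summarizes probes per probe set. The compression of RMA at very bright probe sets and its floor at dim ones can shrink differences. These log2 values were used as deposited, with no further scaling. Array medians were 6.16 to 6.36, and the number of arrays limits precision. Symbols came from the array's annotation and coordinates from RefSeq GRCm38.p6. Of all probe sets, 18003 had 1 symbol, 287 several and 4336 none.

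Comparisons were contrasts of group means in limma over all probe sets, fitted on all MG arrays of a strain (dose and time), all 43 (strain differences of a response) or the 13 sham arrays, with Benjamini-Hochberg adjustment and a threshold of 0.05. A gene was taken at its brightest probe set. The genes named are the 10 listed, up to 3 per related list with the smallest p, and those most alike across arrays (8 for the collagens, 5 for Eln). The genes, lists and doubted arrays were chosen with earlier results of these data known. Alternatives were plate column, replicate block, array weights, which arrays enter, centring, a minimum mean of 5, the variance prior, averaging probe sets, the study's thresholds (absolute log2 difference above 0.58 and p under 0.1 for LD, under 0.01 for HD) and leaving out each array. Residuals of arrays with the same replicate number were hardly more alike (mean r 0.0145 in BALB/c, 0.0124 in C57BL/6) than others, so samples were unpaired. The fits were tested on simulated data. Figures were drawn with matplotlib 3.10.9, and values were computed with limma 3.58.1 in R 4.3.3 (data.table package, version 1.17.8) and with numpy 2.4.6 and pandas 2.3.3 in Python 3.11.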

Additional observations from a re-analysis of the deposited data

Results flagged for a closer look

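With 64 sets of 4 arrays examined (8 genes in 8 groups), 4 had 1 array far from the other 3, where chance gives about 1 in 20. The gap divided by the range of the group was 0.901 for Col5a1 in C57BL/6 LD 4 hr replicate 2, at 9.91 against 10.38 to 10.43, and 0.830 for Col5a1 in C57BL/6 sham 1 month replicate 4, at 10.22 against 10.76 to 10.88. It was 0.882 for Fbn2 in C57BL/6 HD 1 month replicate 4, at 5.15 against 4.29 to 4.39, and 0.882 for Lox in C57BL/6 LD 1 month replicate 1, at 9.26 against 8.52 to 8.60.

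The 1 month LD response of Fbn2 differed between the strains by 2.14 (BALB/c minus C57BL/6) at an unadjusted p under 0.05 from limma's interaction contrast. The adjusted p was 0.367, so it did not pass, and the BALB/c LD group had 2 arrays.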

How the results depend on the processing

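The number of the 8 genes called in BALB/c HD 4 hr against sham was 3 as reported, 0 with plate column as a covariate, 1 with the replicate block, 1 with only the compared groups in the fit, 0 without the arrays doubted from earlier results of these data, 0 with BALB/c HD 1 month replicate 3 left out as well (added after the data were seen), and 0 to 4 with 1 array left out. The replicate numbers only name the mice, and the replicate block changed no other count. For BALB/c HD against LD at 4 hr the number was 0 as reported, 3 with array weights, 1 with only the compared groups, 1 with a minimum mean of 5, 1 with the study's thresholds, and 0 to 1 with 1 array left out (1 without HD replicate 2). The study's thresholds also gave 1 for BALB/c LD 4 hr, 2 for BALB/c LD 1 month, 2 for C57BL/6 LD 1 month, 1 for BALB/c HD against LD at 1 month and 1 for the strain difference of the LD 1 month response, each 0 as reported. The cause was not tested, except that the study's thresholds use unadjusted p. The share of all genes passing those thresholds is not given here, so the counts under them cannot be read against it. The other 364 alternative counts stayed within 1.5 times the reported ones. Under a minimum mean of 5, Fbn2 had no value. No called difference changed sign. In the comparisons with sham at 4 hr, standard errors of 0.25 to 0.44 for Eln and Fbn2 limit what could be called.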
